A study of Mus musculus with 18 samples.

Results

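The naive pluripotency transcription factors were followed as 9 genes, picked by Ensembl identifier out of the 51826 features counted in each library: Zfp42, Klf2, Klf4, Klf5, Esrrb, Tfcp2l1, Tbx3, Prdm14 and Nr0b1. The measurement was ribosome profiling, in which the pieces of mRNA covered by ribosomes are sequenced and counted per gene. The cells were E14, a mouse embryonic stem cell line. The 6 groups of 3 libraries were Quaking KO, Sam68 KO and WT at day 10 and the same lines at day 0. Day 0 is the stem cell culture, and day 10 is the 10th day of embryoid body differentiation, in which the cells grow as aggregates and form many cell types at once. Quaking and Sam68 are related RNA-binding proteins of the STAR family. Both knockout lines share the E14 background with the WT line. The labels used here give no clone number, deleted region or passage for the knockouts, so each line stands for itself alone. All groups received cycloheximide, which stalls ribosomes, at 100 µg/mL for 15 minutes before lysis.

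Naive pluripotency is the state of the early epiblast of the embryo before implantation, and mouse embryonic stem cells are kept in it by LIF acting through STAT3 and by Wnt signalling. A set of transcription factors that bind each other's genes carries these signals, and the set is switched off as cells leave the state. Several of its members are used again later in development in other tissues, among them Klf4 in epithelia, Klf2 in endothelium, Tfcp2l1 in kidney ducts and Tbx3 in heart and limb. A footprint count reflects both the amount of an mRNA and how much it is translated. In a bulk sample, fewer cells of a type and less of the mRNA per cell cannot be told apart.

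Promoter sequence was available from RefSeq (GRCm38.p6) for 6 of the 9 genes, in 7 windows, and 4 are printed to show the genes on which the results turn. Zfp42 and Esrrb are members whose counts nearly vanished by day 10 in each line, and Klf4 and Tfcp2l1 are members that kept a larger part of their level in WT and Sam68 KO than in Quaking KO. Each run holds the 250 bases before the start site of the RefSeq promoter table, 5′ to 3′ on the gene's strand, with matches to the searched motifs in capitals. The Zfp42 window lies at chr8:43307010-43307259 on the minus strand, Esrrb at chr12:86360867-86361116 on the plus strand, Klf4 at chr4:55532476-55532725 on the minus strand and Tfcp2l1 at chr1:118627695-118627944 on the plus strand. For Tfcp2l1 that start site lies 22 bases inside the gene record, whose outermost start is the one given with the gene, and for the other printed windows the sites are the same.
Zfp42: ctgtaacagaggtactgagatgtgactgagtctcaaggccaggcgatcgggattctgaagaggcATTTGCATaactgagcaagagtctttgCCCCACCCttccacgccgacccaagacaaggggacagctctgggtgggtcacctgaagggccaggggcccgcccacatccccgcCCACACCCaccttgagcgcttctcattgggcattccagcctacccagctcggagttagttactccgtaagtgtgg
Esrrb: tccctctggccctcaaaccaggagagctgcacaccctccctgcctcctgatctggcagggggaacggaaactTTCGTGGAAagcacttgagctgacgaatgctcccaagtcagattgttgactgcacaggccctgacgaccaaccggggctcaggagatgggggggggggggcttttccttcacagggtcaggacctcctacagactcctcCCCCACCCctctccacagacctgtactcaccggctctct
Klf4: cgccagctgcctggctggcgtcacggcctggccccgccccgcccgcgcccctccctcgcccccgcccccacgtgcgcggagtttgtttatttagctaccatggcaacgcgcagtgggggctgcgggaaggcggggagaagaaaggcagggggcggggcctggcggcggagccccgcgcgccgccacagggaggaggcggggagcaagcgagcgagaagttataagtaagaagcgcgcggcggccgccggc
Tfcp2l1: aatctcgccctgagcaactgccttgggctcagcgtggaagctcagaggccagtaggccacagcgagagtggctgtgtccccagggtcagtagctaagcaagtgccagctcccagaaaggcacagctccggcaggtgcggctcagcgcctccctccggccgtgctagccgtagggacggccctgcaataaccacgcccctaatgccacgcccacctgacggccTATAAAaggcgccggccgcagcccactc

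The motifs were chosen after these windows had been seen, were searched on both strands, and are a description of letters, not of binding. The Zfp42 window held the POU octamer ATGCAAAT on its reverse strand, beginning 186 bases before the start, and this octamer was in 1.60% of the 32851 mouse promoter windows. The same window held a CACCC box of the kind KLF proteins bind, CCACACCC, which was in 3.20% of all windows. A variant of that box, CCCCACCC, was in the Zfp42 window and in both Esrrb windows, and in 9.05% of all windows. The printed Esrrb window also held the STAT palindrome TTCNNNGAA, which was in 7.02% of all windows. The Tfcp2l1 window held TATAAA beginning 28 bases before the start site of the table, and the window of Nr0b1 (chrX:86191525-86191774, plus strand) held it 32 bases before, against 12.4% of all windows. The windows of Klf4 and Klf2 (chr8:72318812-72319061, plus strand) had none of the motifs. No window of these genes held TCAAGGTCA or the shorter AAGGTCA within it, which nuclear receptors such as Esrrb bind, nor the spaced pair of half-sites known for Tfcp2l1, and these were in 0.387%, 4.08% and 2.78% of all windows. Klf5, Tbx3 and Prdm14 are named here without a promoter.

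Total counts ranged from 988210 to 10646768 per library. All 9 genes passed the filter on low counts, as did 13701 features in all. The 10 largest features took 7.01% to 30.2% of the counts in 15 libraries, 60.2% and 64.4% in Sam68 KO day 10 replicates 2 and 3, and 70.4% in WT day 10 replicate 3. In that WT library 3 counts were worth 7.05 CPM (the count relative to the scaled size of its library), so its low values are coarse. The libraries were sequenced in 3 pools: 1 of them combined Quaking KO and WT of day 0, another combined Sam68 KO of day 0 with WT of day 10, and the last combined the knockout lines of day 10. Groups of 1 pool are compared in Quaking KO against WT at day 0 and in Sam68 KO against Quaking KO at day 10, and elsewhere the pool cannot be told apart from the line or the day. The identifiers could not be paired with symbols other than those of the 9 genes, so the knocked-out genes and markers of other cell types were not analysed here. Set against the label of stem cells at day 0, all of the 9 genes were counted in all 9 day 0 libraries, at 14.2 to 934 CPM.

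**Figure D1:**
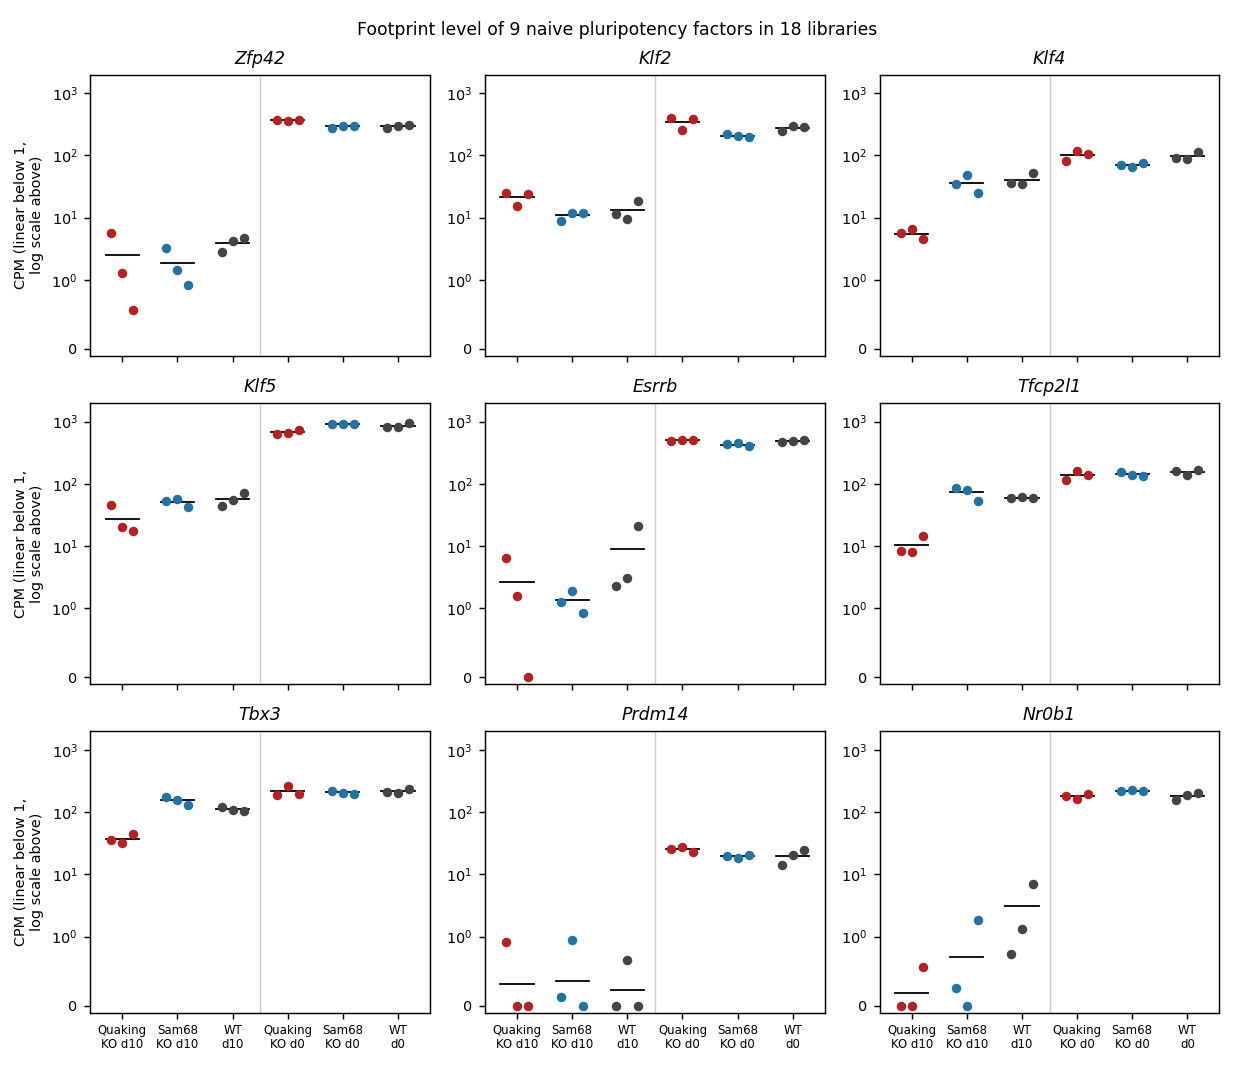
Level of each of the 9 genes in the 18 libraries, in CPM on an axis that is linear below 1 and logarithmic above; points are libraries, bars are means of 3, and day 10 groups (d10) stand left of day 0 groups (d0). Zfp42, Esrrb, Prdm14 and Nr0b1 drop to between 0 and 7.05 CPM at day 10 in each line, apart from 21.1 CPM for Esrrb in WT replicate 3. Klf4, Tfcp2l1 and Tbx3 at day 10 are lower in Quaking KO than in Sam68 KO or WT.

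The first question was what became of the naive factors over differentiation in each line. Tested with edgeR's quasi-likelihood test over all genes (adjusted p below 0.05), 9 of 9 were lower at day 10 than at day 0 in Quaking KO, where 29.4% of all genes were lower. In Sam68 KO 9 of 9 were also lower, against 30.5% of all genes, and in WT 9 of 9, against 30.1%. The median log2 change of the 9 genes was -4.73 in Quaking KO, -4.32 in Sam68 KO and -4.62 in WT, beside 0.11, 0.11 and 0.10 for all genes tested. Their summed level was 107 ± 24.2 CPM in Quaking KO, 331 ± 53.8 CPM in Sam68 KO and 298 ± 33.0 CPM in WT at day 10, against 2561 ± 84.6, 2497 ± 22.0 and 2596 ± 162 CPM in the same lines at day 0 (SD, n = 3 each). The genes did not all fall by the same amount, and they are described below by how much was left.

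Zfp42 (Rex1, ENSMUSG00000051176; chr8:43295067-43307009, GRCm38.p6), a zinc finger protein used as the standard marker of the naive state, was nearly lost in each line. It measured 5.57, 1.29 and 0.561 CPM in Quaking KO, 3.27, 1.43 and 0.926 CPM in Sam68 KO and 2.85, 4.21 and 4.70 CPM in WT at day 10. At day 0 it measured 375, 363 and 367 CPM in Quaking KO, 278, 299 and 303 CPM in Sam68 KO and 280, 301 and 313 CPM in WT. Every day 10 library was far below every day 0 library, and the 3 lines overlapped at day 10. The fall was -7.82 ± 0.35 in Quaking KO, -6.86 ± 0.32 in Sam68 KO and -6.39 ± 0.32 in WT (log2 ± SE; edgeR adjusted p = 2.27e-13, 4.92e-13 and 1.25e-12).

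Esrrb (ENSMUSG00000021255; chr12:86361117-86521628), an orphan nuclear receptor that binds many of the same sites as the core pluripotency factors, followed the same course. At day 10 it measured 6.49, 1.55 and 0 CPM in Quaking KO, 1.26, 1.91 and 0.926 CPM in Sam68 KO and 2.25, 3.10 and 21.1 CPM in WT. In day 0 libraries it lay between 494 and 514 CPM in Quaking KO, 398 and 448 CPM in Sam68 KO and 477 and 510 CPM in WT. The 21.1 CPM of WT replicate 3 stood apart from the other day 10 values and rested on 9 counts in the library with the coarsest scale. The log2 fall was -8.24 ± 0.69 in Quaking KO, -8.26 ± 0.69 in Sam68 KO and -6.98 ± 0.65 in WT (SE; edgeR adjusted p = 2.33e-07, 2.33e-07 and 6.25e-07). Without the 3 libraries dominated by few features, the WT fall was -7.55.

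Nr0b1 (Dax1, ENSMUSG00000025056; chrX:86191775-86195947), an unusual nuclear receptor without the typical DNA-binding domain that acts mainly as a repressor, was counted 2 times in the 3 Quaking KO libraries of day 10, 4 times in Sam68 KO and 14 times in WT. The day 0 libraries held 1525, 4991 and 5031 counts of it in the same lines. The day 10 levels of Nr0b1 were 0, 0 and 0.561 CPM in Quaking KO, 0.252, 0 and 1.85 CPM in Sam68 KO and 0.750, 1.33 and 7.05 CPM in WT. Quaking KO and WT did not overlap, and Sam68 KO overlapped both. Scaled for library size, the pooled day 10 counts were 0.128% of the day 0 level in Quaking KO (95% interval 0.0155 to 0.462, exact binomial), 0.162% in Sam68 KO (0.0442 to 0.415) and 0.645% in WT (0.353 to 1.08). Prdm14 (ENSMUSG00000042414; chr1:13113428-13127163), which represses FGF signalling and DNA methyltransferases in these cells, was the scarcest of the 9 in counts at both days. It was counted 1 time in Quaking KO, 3 times in Sam68 KO and 3 times in WT at day 10, against 205, 434 and 556 times at day 0. The pooled remainder of Prdm14 was 0.475% in Quaking KO (0.0120 to 2.68), 1.40% in Sam68 KO (0.287 to 4.11) and 1.25% in WT (0.257 to 3.68). These intervals cover counting error only, and for both genes they overlap between all 3 lines. Both genes fell in each line (edgeR adjusted p = 1.55e-12, 8.73e-13 and 4.37e-12 for Nr0b1, and 8.36e-10, 2.68e-09 and 1.89e-09 for Prdm14, in Quaking KO, Sam68 KO and WT). The fitted fold changes of these 2 genes depend on the smallest counts and are not given as sizes.

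Klf2 and Klf5, zinc finger proteins of the Krüppel-like family that share targets with Klf4, kept a few percent of their day 0 level. Klf2 (ENSMUSG00000055148; chr8:72319062-72321654) measured 25.0, 15.5 and 23.8 CPM in Quaking KO, 8.81, 11.9 and 12.0 CPM in Sam68 KO and 11.2, 9.53 and 18.8 CPM in WT at day 10. At day 0 Klf2 measured 395, 257 and 392 CPM in Quaking KO, 223, 204 and 199 CPM in Sam68 KO and 251, 295 and 285 CPM in WT. The day 10 level was 6.17 ± 1.49% of the day 0 mean in Quaking KO, 5.24 ± 0.882% in Sam68 KO and 4.76 ± 1.78% in WT (SD over 3 day 10 libraries). The log2 change of Klf2 was -4.06, -4.32 and -4.62 in the same lines (edgeR adjusted p = 3.16e-14, 2.86e-14 and 1.29e-14). Klf5 (ENSMUSG00000005148; chr14:99298691-99313412), which supports stem cell proliferation, had the highest CPM of the 9 at day 0, though levels of different genes are not set against each other here because no lengths were used. At day 10 Klf5 measured 45.4, 20.1 and 17.1 CPM in Quaking KO, 52.1, 57.8 and 42.6 CPM in Sam68 KO and 43.6, 55.4 and 70.5 CPM in WT. At day 0 it measured 640, 666 and 740 CPM, then 899, 899 and 928 CPM, then 831, 812 and 934 CPM in these lines. What was left of Klf5 was 4.04 ± 2.28% in Quaking KO, 5.59 ± 0.846% in Sam68 KO and 6.58 ± 1.57% in WT, and its log2 change was -4.73, -4.15 and -3.99 (edgeR adjusted p = 6.16e-11, 1.81e-10 and 3.79e-10).

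At the other end, in Sam68 KO and WT, stood Klf4, Tfcp2l1 and Tbx3. In Quaking KO, Klf4 (5.44%) and Tfcp2l1 (7.47%) kept about as little as Klf2 (6.17%). Klf4 (ENSMUSG00000003032; chr4:55527137-55532475), one of the reprogramming factors and a target of LIF and STAT3 in stem cells, measured 5.57, 6.45 and 4.49 CPM in Quaking KO, 34.2, 48.7 and 25.0 CPM in Sam68 KO and 36.6, 34.3 and 51.7 CPM in WT at day 10. At day 0 Klf4 measured 80.2, 116 and 107 CPM in Quaking KO, 70.6, 65.6 and 74.9 CPM in Sam68 KO and 90.5, 88.0 and 113 CPM in WT. The Quaking KO libraries of day 10 were all below those of the other lines, and the WT and Sam68 KO libraries of day 10 were mixed. Klf4 kept 5.44 ± 0.976% of its day 0 level in Quaking KO, 51.1 ± 17.0% in Sam68 KO and 42.1 ± 9.72% in WT. The change was -4.19 ± 0.25 in Quaking KO, -0.94 ± 0.20 in Sam68 KO and -1.35 ± 0.20 in WT (log2 ± SE; edgeR adjusted p = 3.77e-13, 0.000183 and 2.78e-06).

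Tfcp2l1 (ENSMUSG00000026380; chr1:118627923-118685168), a CP2-family factor that is likewise a target of LIF and STAT3, measured 8.35, 8.00 and 14.3 CPM in Quaking KO, 84.0, 80.8 and 52.8 CPM in Sam68 KO and 58.5, 60.9 and 58.7 CPM in WT at day 10. The day 0 values were 115, 159 and 136 CPM in Quaking KO, 154, 137 and 133 CPM in Sam68 KO and 163, 137 and 164 CPM in WT. The 3 lines overlapped at day 0, and at day 10 Quaking KO stood apart below the others. It kept 7.47 ± 2.59% of the day 0 level in Quaking KO, 51.3 ± 12.1% in Sam68 KO and 38.4 ± 0.870% in WT. The log2 change was -3.69 ± 0.21, -0.94 ± 0.18 and -1.38 ± 0.18 in these lines (SE; edgeR adjusted p = 2.21e-13, 5.48e-05 and 4.27e-07).

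Tbx3 (ENSMUSG00000018604; chr5:119670534-119684724), a T-box factor that supports self-renewal and also acts in heart and limb development, measured 35.2, 31.5 and 44.0 CPM in Quaking KO, 178, 158 and 132 CPM in Sam68 KO and 123, 109 and 103 CPM in WT at day 10. Before differentiation, at day 0, it measured 189, 268 and 193 CPM in Quaking KO, 221, 206 and 196 CPM in Sam68 KO and 215, 204 and 237 CPM in WT. The lines again overlapped at day 0, while at day 10 the order was Sam68 KO, WT, Quaking KO with no overlap of neighbours. Tbx3 kept 17.1 ± 2.97% in Quaking KO, 75.1 ± 11.0% in Sam68 KO and 51.2 ± 4.67% in WT, and so kept the most of the 9 in each line. The log2 change was -2.54 ± 0.17 in Quaking KO, -0.40 ± 0.15 in Sam68 KO and -0.95 ± 0.16 in WT (SE; edgeR adjusted p = 2.29e-12, 0.0221 and 9.40e-06). The small fall in Sam68 KO was not past the threshold without Sam68 KO day 0 replicate 1 (-0.37, edgeR adjusted p = 0.0680). It was not past it either with all libraries thinned to an equal total count (-0.24, edgeR adjusted p = 0.185). Without the 3 dominated libraries, which left only replicate 1 of Sam68 KO at day 10, the change was -0.21.

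**Figure D2:**
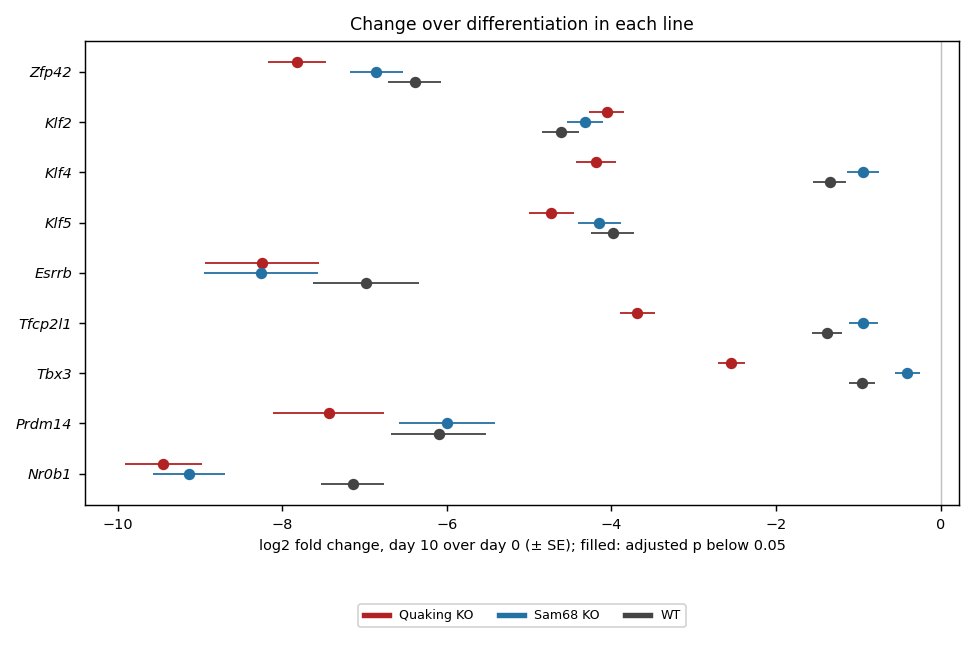
Log2 fold change of day 10 over day 0 for the 9 genes (horizontal axis, point ± SE) in Quaking KO, Sam68 KO and WT; all points are filled, since each passed the edgeR test. Klf4, Tfcp2l1 and Tbx3 lie between -0.40 and -1.38 in Sam68 KO and WT and between -2.54 and -4.19 in Quaking KO.

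The second question was whether the change over differentiation differed between a knockout and WT, tested as a line by day interaction in the same fit. In Quaking KO the interaction passed for 3 of 9 genes, against 8.88% of all genes in either direction and 3.76% in the lower direction. All 3 fell further in Quaking KO than in WT, with a difference of the log2 changes of -2.84 ± 0.32 for Klf4, -2.31 ± 0.27 for Tfcp2l1 and -1.59 ± 0.22 for Tbx3 (SE; edgeR adjusted p = 1.90e-06, 4.52e-06 and 3.82e-05). The interaction was -1.43 for Zfp42, -0.75 for Klf5 and 0.56 for Klf2, none past the threshold (edgeR adjusted p = 0.0917, 0.210 and 0.253). Nr0b1 (-2.30), Prdm14 (-1.33) and Esrrb (-1.26) did not pass either (edgeR adjusted p = 0.150, 0.663 and 0.513). Without Quaking KO day 10 replicate 1, the library in which both Zfp42 and Klf5 were highest in that group, Zfp42 (-2.16, edgeR adjusted p = 0.00131) and Klf5 (-1.18, adjusted p = 0.00114) passed as well. The interaction of Zfp42 also passed in DESeq2 (-1.50, adjusted p = 0.0244) and with no filter on low counts (-1.48, edgeR adjusted p = 0.0299). In Sam68 KO the edgeR interaction passed for 0 of 9 genes, against 0.431% of all genes; 2 of the 9, Tbx3 and Nr0b1, had an unadjusted p below 0.05, and DESeq2 called 0. The Sam68 interaction was 0.55 for Tbx3, 0.44 for Tfcp2l1, 0.40 for Klf4, 0.29 for Klf2 and 0.10 for Prdm14 on the log2 scale. It was -0.16 for Klf5, -0.47 for Zfp42, -1.28 for Esrrb and -1.99 for Nr0b1, and the lowest edgeR adjusted p was 0.401, for Tbx3. The 2 interactions share the WT libraries.

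The third question was how the lines differed at day 10. Between Quaking KO and WT, 5 of 9 genes passed the edgeR test, against 23.9% of all genes, and their median log2 difference was -1.22 over all 9, beside -0.03 for all genes. Klf4, Tfcp2l1, Tbx3 and Klf5 were lower (12.8% of all genes were), and Klf2 was higher (11.1% were). From the values given above, the Quaking KO and WT libraries did not overlap for Klf4, Tfcp2l1, Tbx3 and Nr0b1, 4 of 9 genes against 31.2% of all genes. The level in Quaking KO was 0.145 times that in WT for Klf4 (log2 -2.79 ± 0.26), 0.178 times for Tfcp2l1 (-2.49 ± 0.22) and 0.328 times for Tbx3 (-1.61 ± 0.17), with edgeR adjusted p = 1.91e-08, 6.88e-09 and 9.25e-08 (± SE). Without the 3 dominated libraries these differences were of similar size, at -2.69, -2.50 and -1.66.

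Klf5 and Klf2 moved in opposite directions between these groups, and both rested on less. Klf5 was at 0.474 times the WT level (log2 -1.08 ± 0.26, SE; edgeR adjusted p = 0.00563), with Quaking KO replicate 1 inside the WT range and replicates 2 and 3 below it. Klf2 was at 1.85 times the WT level (0.89 ± 0.23, SE; edgeR adjusted p = 0.00575), with Quaking KO replicate 2 inside the WT range. When only these 6 libraries were fitted, neither passed (edgeR adjusted p = 0.0772 for Klf5 and 0.118 for Klf2), and Klf2 did not pass without WT day 10 replicate 2 (0.72, adjusted p = 0.0724). Zfp42 (-1.13), Nr0b1 (-2.31), Esrrb (-1.22) and Prdm14 (-0.99) did not pass (edgeR adjusted p = 0.0863, 0.0740, 0.367 and 0.676). Zfp42 passed when replicate 1 of Quaking KO (-1.87, edgeR adjusted p = 0.00328) or of Sam68 KO (-1.14, adjusted p = 0.0489) at day 10 was left out. Nr0b1, with 2 counts against 14, passed without replicate 3 of Quaking KO (-5.66, edgeR adjusted p = 0.0317) or of Sam68 KO (-2.33, adjusted p = 0.0405) or replicate 1 of WT (-2.91, adjusted p = 0.0305), and after thinning (-3.97, adjusted p = 0.0435).

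Between Sam68 KO and WT at day 10, the edgeR test called 0 of 9 genes, against 0.175% of all genes; 2 of the 9, Tbx3 and Nr0b1, had an unadjusted p below 0.05, and DESeq2 called 0. Tbx3 was 0.47 ± 0.16 higher on the log2 scale and did not overlap (edgeR adjusted p = 0.372), as Esrrb did not in the lower direction (-1.48 ± 0.88, adjusted p = 0.868), so 2 of 9 did not overlap beside 11.4% of all genes. Klf4 differed by -0.06 ± 0.21, Tfcp2l1 by 0.31 ± 0.18, Klf5 by -0.08 ± 0.25 and Klf2 by -0.12 ± 0.24 (log2 ± SE; edgeR adjusted p = 1, 0.853, 1 and 1). The standard errors, which are approximate, leave room for moderate differences in these genes. The remaining differences were -0.49 ± 0.40 for Zfp42, 0.08 ± 1.18 for Prdm14 and -1.72 ± 0.78 for Nr0b1 (log2 ± SE; edgeR adjusted p = 0.960, 1 and 0.712).

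The knockouts were sequenced in 1 pool at day 10, so no difference in pool stands between them. Their libraries did differ in how few features dominated them. The 10 largest features took 29.9%, 60.2% and 64.4% of the counts in Sam68 KO, and 24.6% to 30.0% in Quaking KO. Sam68 KO was higher than Quaking KO for Klf4 (2.73 ± 0.25), Tfcp2l1 (2.80 ± 0.21), Tbx3 (2.08 ± 0.16) and Klf5 (1.00 ± 0.26), on the log2 scale with SE (edgeR adjusted p = 1.94e-08, 7.01e-10, 1.41e-09 and 0.00847; 13.0% of all genes were higher). Klf2 was lower in Sam68 KO (log2 -1.01 ± 0.23, SE; edgeR adjusted p = 0.00204; 10.6% of all genes were lower). These 5 of 9 stand beside 23.7% of all genes called in either direction. The libraries did not overlap for Klf4, Tfcp2l1, Tbx3 and Klf2, 4 of 9 against 33.7% of all genes. Klf5 did not pass with only these 6 libraries in the fit (1.00, edgeR adjusted p = 0.0514) or after thinning to an equal total count (0.52, adjusted p = 0.238). Zfp42 (0.64) passed only when replicate 1 of Quaking KO was left out (1.38, edgeR adjusted p = 0.0325) among the alternatives tried. Esrrb (-0.25), Prdm14 (1.07) and Nr0b1 (0.60) did not pass (edgeR adjusted p = 0.912, 0.651 and 0.775). The comparison uses the same Quaking KO libraries as the comparison with WT at day 10, so the values of both stand side by side and are not counted as separate evidence.

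**Figure D3:**
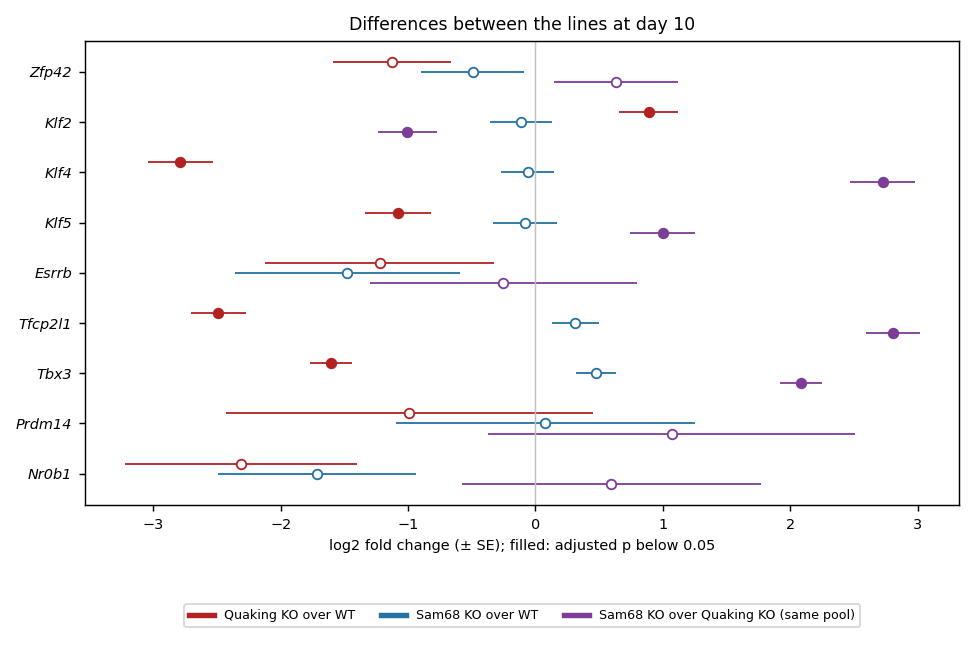
Log2 fold change at day 10 for the 9 genes (horizontal axis, point ± SE) for Quaking KO over WT, Sam68 KO over WT and Sam68 KO over Quaking KO; filled points passed the edgeR test. Klf4, Tfcp2l1 and Tbx3 lie at -1.61 to -2.79 in Quaking KO over WT and at 2.08 to 2.80 in Sam68 KO over Quaking KO, and no point of Sam68 KO over WT is filled.

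Ratios of counts within a library do not depend on how libraries are scaled. The pairs were chosen with the direction of each gene known, so the ratios describe the same changes and are not separate evidence. Klf2 was itself higher in Quaking KO than in WT at day 10, which lowers the Quaking KO ratios over it. At day 10 the count of Klf4 over that of Klf2 was 0.222, 0.417 and 0.188 in Quaking KO, 3.89, 4.08 and 2.08 in Sam68 KO and 3.25, 3.60 and 2.75 in WT. At day 0 it was 0.203, 0.452 and 0.273 in Quaking KO, 0.317, 0.321 and 0.377 in Sam68 KO and 0.360, 0.298 and 0.395 in WT. Thus the ratio at day 10 was above every day 0 value in Sam68 KO and WT, and within the day 0 range in 2 of the 3 Quaking KO libraries. Tfcp2l1 over Klf2 was 0.333, 0.517 and 0.600 in Quaking KO, 9.54, 6.76 and 4.38 in Sam68 KO and 5.20, 6.40 and 3.12 in WT at day 10. Tbx3 over Klf5 overlapped more, at 0.776, 1.56 and 2.57 in Quaking KO, 3.42, 2.74 and 3.11 in Sam68 KO and 2.82, 1.97 and 1.47 in WT. Tfcp2l1 over Klf5 also overlapped between Quaking KO and WT at day 10. It was 0.184, 0.397 and 0.836 in Quaking KO, 1.61, 1.40 and 1.24 in Sam68 KO and 1.34, 1.10 and 0.833 in WT. Some day 10 ratios rest on few counts, such as 6 of Klf4 in Quaking KO replicate 1 and 8 of Klf2 in WT replicate 3.

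The trio of Klf4, Tfcp2l1 and Tbx3 was picked from the results above in these same counts. Its share therefore restates those results in another form and is not a separate test. The trio made up 37.1%, 54.4% and 59.9% of the counts of the 9 genes in Quaking KO at day 10. They made up 81.8%, 79.5% and 78.3% in Sam68 KO and 78.2%, 73.4% and 63.6% in WT at day 10. The Quaking KO libraries were below all others of day 10, and all 9 day 10 libraries were above the day 0 libraries, where the share was 15.4% to 21.4%. Klf2 alone took 18.3% to 22.7% of the 9 genes' counts in Quaking KO, 2.43% to 4.48% in Sam68 KO and 3.42% to 5.59% in WT at day 10.

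**Figure D4:**
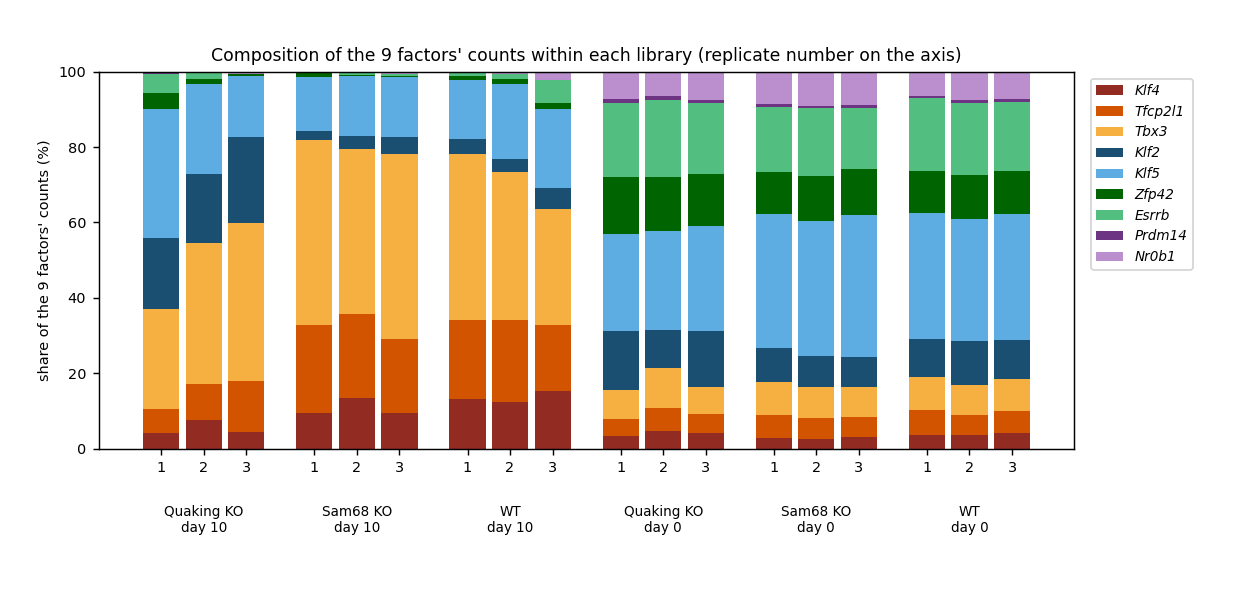
Share of the counts of the 9 genes that fell on each gene (vertical axis, percent) in each of the 18 libraries, with the replicate number under each bar. Klf4, Tfcp2l1 and Tbx3, at the bottom of the bars, take 15.4% to 21.4% at day 0, 37.1% to 59.9% in Quaking KO at day 10 and 63.6% to 81.8% in Sam68 KO and WT at day 10. These genes were grouped with their changes in the same counts known.

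At day 0 few differences between the lines passed the test. Between Quaking KO and WT, which shared a pool, edgeR called 0 of 9 genes (0.365% of all genes were called); 0 of the 9 had an unadjusted p below 0.05, and DESeq2 called 1, Zfp42. Zfp42 was 368 ± 5.71 CPM in Quaking KO and 298 ± 16.6 CPM in WT (SD, n = 3 each) with no overlap, a log2 difference of 0.30 ± 0.22 (SE; edgeR adjusted p = 0.928). The same gene gave 0.40 in DESeq2 (adjusted p = 0.00855) and 0.40 in edgeR with only these 6 libraries (adjusted p = 0.0125). Klf5 was the other gene without overlap, lower in Quaking KO at 682 ± 52.2 CPM against 859 ± 65.8 CPM in WT (edgeR adjusted p = 0.926), and 2 of 9 compares with 19.0% of all genes. The genes that set Quaking KO apart at day 10, Klf4, Tfcp2l1 and Tbx3, differed from WT at day 0 by 0.05 ± 0.18, -0.18 ± 0.17 and -0.02 ± 0.15 (log2 ± SE; edgeR adjusted p = 1, 0.996 and 1). Klf2 differed by 0.33, Prdm14 by 0.34, Esrrb by 0.04 and Nr0b1 by -0.01 (edgeR adjusted p = 0.777, 0.988, 1 and 1).

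Between Sam68 KO and WT at day 0, edgeR called 0 of 9 genes (1.26% of all genes were called); 2 had an unadjusted p below 0.05, Klf2 and Klf4, and DESeq2 called 0. Klf2 was 209 ± 12.8 CPM in Sam68 KO and 277 ± 23.0 CPM in WT, and Klf4 was 70.4 ± 4.63 CPM in Sam68 KO and 97.0 ± 13.6 CPM in WT (SD, n = 3 each). Both were without overlap (log2 -0.41 and -0.47; edgeR adjusted p = 0.408 and 0.335), and both passed when only these 6 libraries were fitted (adjusted p = 0.0375 and 0.0475). Esrrb, lower in Sam68 KO, and Nr0b1, higher in Sam68 KO, did not overlap either (log2 -0.20 and 0.27; edgeR adjusted p = 0.966 and 0.808), which makes 4 of 9 genes against 21.7% of all genes. The other genes differed by -0.03 for Zfp42, 0.08 for Klf5, -0.13 for Tfcp2l1, -0.07 for Tbx3 and -0.02 for Prdm14, with overlap.

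Between Sam68 KO and Quaking KO at day 0, edgeR called 1 of 9 genes, against 3.31% of all genes in either direction and 0.766% in the lower one: Klf2 was lower in Sam68 KO (log2 -0.74 ± 0.17, SE; adjusted p = 0.0156). The call depended on which libraries were kept. Klf2 did not pass when replicate 1 or 3 of Quaking KO was left out (edgeR adjusted p = 0.126 and 0.125) or replicate 2 or 3 of Sam68 KO (adjusted p = 0.0656 and 0.0722). Its log2 difference stayed between -0.911 and -0.621 whenever 1 library was left out. With only these groups in the fit, Klf2 passed at -0.84 (edgeR adjusted p = 0.00374). The groups did not overlap for 7 of 9 genes, against 24.8% of all genes; Tfcp2l1 (log2 0.05) and Tbx3 (-0.05) were the 2 that did. Klf4 (-0.52), Prdm14 (-0.36), Zfp42 (-0.33) and Esrrb (-0.24) were lower in Sam68 KO, and Klf5 (0.41) and Nr0b1 (0.29) higher, without passing the test (edgeR adjusted p = 0.144, 0.651, 0.525, 0.870, 0.424 and 0.620). Zfp42 passed in DESeq2 (-0.42, adjusted p = 0.000657) and in edgeR with only these groups (-0.43, adjusted p = 0.0181). Klf4 passed in edgeR with only these groups as well (-0.61, adjusted p = 0.0242).

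Across the 18 libraries, the likeness of 2 genes was described by Pearson's r of their log2 CPM, which all libraries of a day raise together and to which no p is given. Among the features tested, the one most like Tfcp2l1 was Tbx3 and the one most like Tbx3 was Tfcp2l1, at r = 0.990. The member most like Klf4 was Tfcp2l1 (0.968), the one most like Zfp42 was Esrrb (0.986), and the one most like Klf2 was Zfp42 (0.963). Klf5 and Prdm14 were most like Zfp42 (0.984 and 0.977), and Nr0b1 was most like Klf5 (0.968). Each of Zfp42, Klf2, Klf5, Esrrb, Prdm14 and Nr0b1 was least like Tbx3, at r between 0.602 and 0.795. Within the 9 day 10 libraries alone, r was 0.986 for Tfcp2l1 and Tbx3, 0.946 for Klf4 and Tfcp2l1 and 0.914 for Klf4 and Tbx3. These genes were grouped for being lower in Quaking KO at day 10, which by itself raises their r. Klf5 was also alike in these libraries, at 0.825 with Klf4, 0.721 with Tfcp2l1 and 0.703 with Tbx3. Klf2 ran the other way there, at -0.753 with Tfcp2l1, -0.779 with Tbx3 and -0.702 with Klf4. Within the 9 day 0 libraries, r was 0.794 for Tfcp2l1 and Tbx3 and -0.829 for Zfp42 and Klf5. The points share their library, its depth and its line.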

How the data were processed

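Ribosome footprints of 18 libraries (6 groups of 3, described by the submitters as biological triplicates) were used as the raw counts per gene that the authors deposited, whole numbers for 51826 versioned Ensembl identifiers. Per the labels' protocols, footprints of 28 to 32 nt were selected on a gel. The submitters' processing notes name STAR 2.5.3a, Bowtie2 and bcl2fastq 2.17.1.14, and the builds mm10 and GRCm38. How strand was used, the counting program and the annotation release were not given in the sources used here, so reads of overlapping antisense genes cannot be told apart.

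All libraries entered 1 fit in edgeR 4.0.16 (R 4.3.3): quasi-likelihood test, robust, TMM scaling, default filter by group, 1 mean per group, 11 comparisons of which 2 were interactions. Of 33167 features with a count, 13701 were tested, with Benjamini-Hochberg adjustment over all of them (two-sided, threshold 0.05). The common biological coefficient of variation was 0.229. CPM use TMM library sizes, errors are SD over 3 libraries unless SE is given, and r used log2 CPM with a prior count of 2. For percents of the day 0 level, the SD is over the day 10 libraries, each divided by the day 0 mean. The SE was worked out as the size of the log2 change over the square root of the test's F statistic. It is therefore approximate and can be narrower than the p of the same test implies. Floors of 3 counts and 95% exact intervals cover counting error only. Replicates of a group differed by more than sampling noise in every pair (lowest chi-square over its degrees of freedom 5.32). The test was tested on simulated data.

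All 9 genes are named in every comparison; the members, lists and tests were chosen with earlier results of these data known. Alternatives were DESeq2 1.42.0, scaling by RLE or by upper quartile, no filter, only the compared groups, a replicate block, a pool term, thinning to a total of 988210 counts (equal totals, though TMM sizes still differ), leaving out the 3 dominated libraries and leaving out each library. Leaving out the dominated libraries left only replicate 1 of Sam68 KO and replicates 1 and 2 of WT at day 10. The RefSeq table matched 0 Ensembl identifiers, so other gene lists and cell type markers named by symbol were not analysed here. Gene positions and promoters are RefSeq's, on GRCm38.p6, found by symbol.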

Additional observations from a re-analysis of the deposited data

Results flagged for a closer look

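Of the 9 naive factors, 3 changed differently over differentiation in Quaking KO and in WT by the test of the difference itself, the line by day interaction in edgeR. The interaction was -2.84 for Klf4, -2.31 for Tfcp2l1 and -1.59 for Tbx3 on the log2 scale (adjusted p = 1.90e-06, 4.52e-06 and 3.82e-05), so that each fell further in Quaking KO. All 3 Quaking KO libraries of day 10 were below all 3 WT libraries of day 10 for each gene. At day 10 Quaking KO and WT were sequenced in different pools, and line and pool cannot be told apart there. Within the pool that both knockouts shared, Sam68 KO was higher than Quaking KO by 2.73, 2.80 and 2.08 for the same genes.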

How the results depend on the processing

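Klf4, Tfcp2l1 and Tbx3 kept their call and direction in Quaking KO against WT at day 10, in Sam68 KO against Quaking KO at day 10 and in the Quaking interaction under every alternative run, except for the first comparison in the model with a pool term. Not counted there is Sam68 KO against Quaking KO at day 10 without the dominated libraries, where only replicate 1 of Sam68 KO was left. Of 2645 values of the 9 genes under alternatives, 2508 kept their sign and their side of the threshold. A further 80, from 28 results, changed sign with neither value past the threshold, 16 were reversed, 19 were no longer past it and 22 were newly past it; the causes were not tested unless the construction shows them. The number of the 9 genes called moved by more than 1.5 times as follows. It was 1 in place of 0 for Quaking KO against WT at day 0 by DESeq2 and with only the compared groups. It was 2 in place of 0 for Sam68 KO against WT at day 0 with only the compared groups. It was 3 in place of 5 for Quaking KO against WT at day 10 with only the compared groups, where the filter left out Zfp42, Prdm14 and Nr0b1. For Sam68 KO against Quaking KO at day 0 it was 2 by DESeq2 and 3 with only the compared groups, in place of 1, and 0 to 1 when 1 library was left out. For the Quaking interaction it was 3 to 5 when 1 library was left out. Smaller moves were 4 to 6 for Quaking KO against WT at day 10, 5 to 6 for Sam68 KO against Quaking KO at day 10 and 8 to 9 for Sam68 KO over days when 1 library was left out. With all libraries thinned these counts were 6, 4 and 8. The Sam68 KO against Quaking KO count at day 10 was 4 with only the compared groups, and the Quaking interaction was 4 by DESeq2 and with no filter. The pool term needs an additive model of line, day and pool, which has no line by day term. By this construction its Quaking effect is the day 0 difference and its Sam68 over Quaking effect is the day 10 difference. In it, 0 genes were called for Quaking KO against WT at day 10, 3 for Sam68 KO against WT at either day, and 5 for Sam68 KO against Quaking KO at day 0. Its single day effect, the WT change minus the Quaking KO change plus the Sam68 KO change, was 1.90 for Klf4, 1.37 for Tfcp2l1 and 1.18 for Tbx3, with 8 genes called, 3 higher and 5 lower. Its Sam68 KO against WT effect, the same for both days, was 2.78, 2.62 and 2.06 for these genes, reversed for all 3 at day 0 and for Klf4 alone at day 10. Its other reversed values were 0.0521 for Klf4 in Quaking KO against WT at day 10, and 2.73 for Klf4 and 2.08 for Tbx3 in Sam68 KO against Quaking KO at day 0. The labels give all groups replicate numbers 1 to 3, but no comparison of 2 groups showed pairing in all 3 same-numbered pairs. In each, at least 1 such pair had a correlation of 0.00804 or less. The highest were 0.442 and 0.267, for replicates 1 and 3 of Sam68 KO against WT at day 10. A lowest value of 3 cannot settle whether samples were paired. With the replicate number as a block the counts of called genes were 9, 9 and 9 for the changes over days in Quaking KO, Sam68 KO and WT, 5 for Quaking KO against WT at day 10 and 3 for the Quaking interaction, as without it. Upper quartile scaling moved the median of all genes in Sam68 KO against Quaking KO at day 0 to 0.01, against 0.11 with TMM, and DESeq2 moved that of the Quaking interaction to -0.13, against 0.07. At day 10 the libraries held 0 to 26 counts each of Zfp42, Esrrb, Prdm14 and Nr0b1, which limits the precision of their values. The same limit holds for other genes in some day 10 libraries. Klf4 had 6 to 25 counts per library in Quaking KO and 22 in WT replicate 3. Tfcp2l1 had 9 counts in Quaking KO replicate 1, and Klf2 had 8 in WT replicate 3.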
